A study of Mus musculus with 6 samples.

Results

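The genes examined here were 34 that build and regulate the acidic compartment of the cell. The rule that picked them used what their products are and no measured value, although results of these data were already known when it was written. The set held 8 genes for the V0 sector of the vacuolar proton pump (V-ATPase), namely Atp6v0a1, Atp6v0a2, Tcirg1, Atp6v0b, Atp6v0c, Atp6v0d1, Atp6v0e and Atp6v0e2. It also held 8 genes for the V1 sector (Atp6v1a, Atp6v1b2, Atp6v1c1, Atp6v1d, Atp6v1e1, Atp6v1f, Atp6v1g1 and Atp6v1h) and 2 for accessory subunits (Atp6ap1 and Atp6ap2). A further 13 encode lysosomal membrane proteins (Lamp1, Lamp2, Cd63, Scarb2, Mcoln1, Npc1, Npc2, Clcn7, Ostm1, Ctns, Tmem192, Laptm4a and Laptm4b), with Npc2 being a soluble luminal protein placed beside its membrane partner Npc1. The last 3, Tfeb, Tfe3 and Mitf, encode transcription factors. All 34 were among the 47069 genes of the count table, and all 34 passed the filter on low counts that left 14165 genes for testing.

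The V-ATPase is a rotary motor. Its V1 sector sits on the cytosolic face and hydrolyses ATP, which turns a rotor that drives protons through the V0 sector in the membrane, and the acid this creates activates the hydrolases of the lysosome. Transporters and channels of the lysosomal membrane release the products of digestion, while heavily glycosylated proteins such as Lamp1 and Lamp2 line its inner face. Factors of the TFEB family are held in the cytosol when phosphorylated by mTORC1, a kinase complex that is activated on the lysosomal surface, and once in the nucleus they bind E-box sites in the promoters of lysosomal genes.

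All 6 libraries came from cultured myoblasts of mdx mice, which lack dystrophin and model Duchenne muscular dystrophy, so the vehicle group was dystrophic too and no wild-type cells were compared. Per the methods of the study, the cells came from 3 different mice and had been sorted for Itgb1 and Itga7 and against Sca-1, CD45, CD31 and CD11b. Myoblasts were grown in medium with serum and FGF2 or differentiated in low-serum medium, and the medium of the sequenced cultures is not named. The methods describe male C57BL/10 mdx mice of 1 age for the injections of live animals, and they give no separate age for the donors of these cultures. One group received 10 µM PSB-KD107, a synthetic agonist of the G protein-coupled receptor Gpr18, and the other received vehicle (DMSO diluted in aqueous buffer). The sample records give 2 days of treatment and the methods give a shorter time. Each group had 3 libraries, numbered 1, 2 and 4 in the count table. The records do not say whether they were separate cultures, so p-values measure the spread between these libraries. Whether each mouse gave cells to both groups is not stated, and the main test used no pairing. RNA was extracted from whole cultures, so that fewer cells of a type and less RNA per cell cannot be told apart.

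Libraries held 30917613 to 48756794 counts. The cultures carried the markers of myoblasts, all 10 of which were tested. Their summed level was 9827 to 10270 CPM (read counts scaled to the size of the library) in the vehicle libraries. In the PSB-KD107 libraries it was 8779 to 9248 CPM. Some single markers differed more between libraries than this sum. In libraries 1, 2 and 4, Myod1 was at 515.2, 955.8 and 1060 CPM in vehicle and 398.7, 764.7 and 522.6 CPM in PSB-KD107. Cdh15 was at 637.1, 1183 and 1373 CPM and at 599.7, 1214 and 571.8 CPM in the same order. Des, Megf10, Chrna1, Vcam1 and Pax7 were instead highest in vehicle library 1. The part of these differences in the values of the members was not tested. The 10 macrophage and leukocyte markers summed to 4.06 to 5.95 CPM in the vehicle and 2.81 to 7.99 CPM in the PSB-KD107 libraries, with Adgre1 and Tyrobp at 0 counts in every library. For the 6 osteoclast markers, of interest because this cell type is rich in V-ATPase, the sums were 0.372 to 0.714 CPM and 0.674 to 1.49 CPM, with Dcstamp at 0 counts. The 5 endothelial markers stayed at or under 1.40 CPM in sum, and the 6 Schwann cell and melanocyte markers at or under 4.59 CPM. The 5 fibro-adipogenic markers summed to 1.33 to 4.36 CPM in the vehicle and 1.73 to 10.7 CPM in the PSB-KD107 libraries, where the highest value was that of PSB-KD107 library 4 and Ly6a alone gave 8.36 CPM. Among the myoblast markers, 2 were lower at an unadjusted p of 0.05 in edgeR, beside 2.93% of all genes. Pax7, a marker of the stem cell state, had a mean of 59.5 ± 9.47 CPM without and 32.0 ± 4.55 CPM with the agonist, and Myog, a marker of differentiation, had 2134 ± 82.8 CPM and 1521 ± 301 CPM (SD, n = 3 each). Neither passed adjustment in edgeR (adjusted p = 0.209 for Pax7 and 0.469 for Myog), where 0.00% of all genes did. The part of these 2 markers in the values of the members was not tested.

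E-boxes of the kind that TFEB family factors bind were looked for in the promoters of the members, because the set holds both the factors and many genes with such sites. The RefSeq table (GRCm38.p6) gives 250 bases before and 50 after each start, and 27 of the 34 members had an entry, with 38 promoters in all. The motif TCACGTGA, which reads the same on both strands, occurred in 5 of these 27 genes (18.5%), against 1.12% of all 27025 genes in the table and 0.974% of all 32851 promoters. The shorter core CACGTG, which every TCACGTGA contains, occurred in 7 of the 27 genes (25.9%), against 8.09% of all genes and 7.15% of all promoters. The set was searched because many of its genes hold such sites, so these higher shares are not an independent finding. A match is a description of the letters and does not show that a factor binds there. The windows of the 7 genes are printed 5′ to 3′ on the strand of the gene, with each TCACGTGA, or CACGTG where the longer motif is not complete, in capitals.
Mcoln1 (chr8:3500436-3500491, plus strand): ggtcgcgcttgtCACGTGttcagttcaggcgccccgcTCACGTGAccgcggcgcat
Clcn7 (chr17:25133364-25133415, plus strand): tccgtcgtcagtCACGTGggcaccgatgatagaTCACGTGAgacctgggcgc
Atp6v0d1 (chr8:105566050-105566079, minus strand): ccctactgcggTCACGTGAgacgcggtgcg
Atp6v0e (chr17:26676387-26676416, plus strand): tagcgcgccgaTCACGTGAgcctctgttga
Atp6v1a (chr16:44139373-44139402, minus strand): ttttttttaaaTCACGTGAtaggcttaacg
Lamp1 (chr8:13159088-13159163, plus strand): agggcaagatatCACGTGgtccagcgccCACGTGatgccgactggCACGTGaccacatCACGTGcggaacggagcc
Atp6v0b (chr4:117887330-117887377, minus strand): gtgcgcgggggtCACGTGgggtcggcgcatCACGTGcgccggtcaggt

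The sites lay close to the start given by RefSeq in most of these windows. In Atp6v0d1 the core CACGTG began 3 bases before the start given by RefSeq, in Atp6v0e it began 3 bases after it, and in Clcn7 the 2 cores began 15 bases before and 7 bases after it. Lamp1 carried 4 copies of the core, which began 61, 45, 28 and 15 bases before its start. Atp6v0b carried 2 copies, at 36 and 18 bases before the start, and Mcoln1 also carried 2, at 71 and 45 bases before it. In Atp6v1a the only copy began 131 bases before the start. In the GENCODE annotation Atp6v0e begins upstream, at chr17:26663231, and Atp6v1a reaches to chr16:44139705. The sites of these 2 genes thus lie inside the genes as GENCODE gives them. Mcoln1 begins at chr8:3500457 in GENCODE, so that its TCACGTGA also lies inside the gene and its other core before it. The remaining 20 members with an entry, among them Npc2 and Ostm1, had no CACGTG in this window, and the members Atp6v0a2, Atp6v1b2, Atp6v1c1, Atp6v1g1, Atp6v1h, Npc1 and Laptm4b had no entry.

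PSB-KD107 was compared with vehicle to ask how the agonist changed gene expression in dystrophic myoblasts. Most genes of the proton pump and of the lysosomal membrane had positive fold changes after PSB-KD107, as did the 3 TFEB family genes. Groups were apart in 10 of 18 pump genes, 7 of 13 membrane genes and 0 of 3 TFEB family genes. The log2 fold change was above 0 in 30 of the 34 members (49.9% of all genes tested) and below 0 in Atp6v0a2, Tcirg1, Atp6v0e2 and Npc1. The median log2 fold change was 0.40 over the members and -0.00074 over all genes tested. In 17 members every PSB-KD107 library lay above every vehicle library (9.20% of all genes tested), and in none did every PSB-KD107 library lie below (6.59% of all genes). Single genes did not pass correction over the whole table in edgeR's quasi-likelihood test, which called 0 of the 34 members and 0.00% of all genes at an adjusted p of 0.05. At an unadjusted p of 0.05 in the same test, 17 members were higher and 0 were lower, against 6.47% of all genes higher and 2.93% lower. DESeq2 called 6 members higher (Atp6v1d, Atp6v1g1, Npc2, Ostm1, Tmem192 and Laptm4b) and 0 lower, against 2.26% and 0.719% of the 13761 genes to which it gave an adjusted p.

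These counts depended on single libraries. Without vehicle library 2, 11 members reached an unadjusted p of 0.05 in edgeR. The DESeq2 count was 2 without vehicle library 2, also 2 without vehicle library 4, and 17 without PSB-KD107 library 4. The matching shares of all genes with a library left out are not given here. These changes in count therefore cannot be read as particular to the members. The edgeR count at an adjusted p of 0.05 stayed at 0 with each of the 6 libraries left out.

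**Figure D1:**
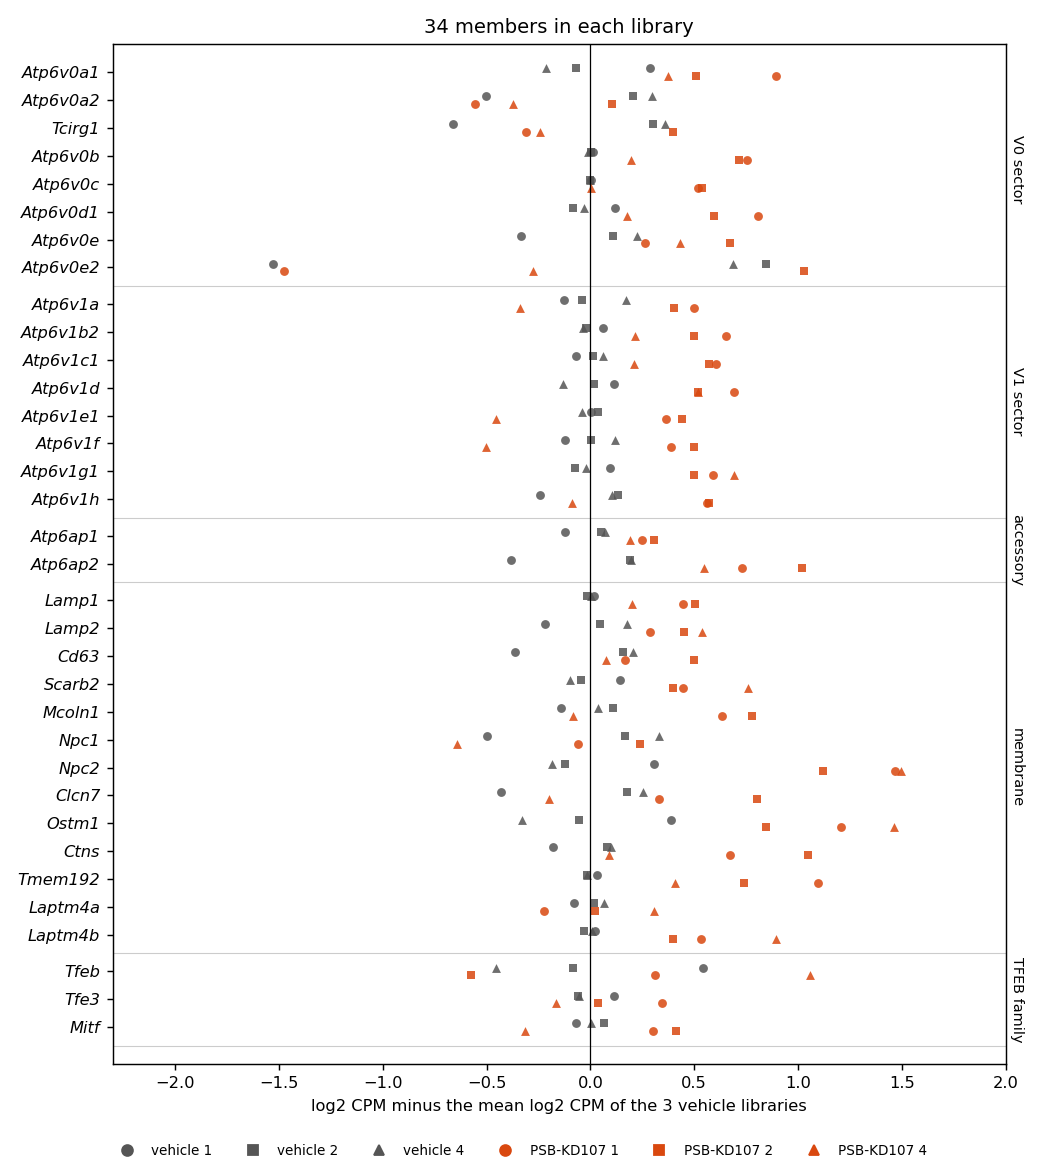
Each of the 34 members in each of the 6 libraries, as log2 CPM minus the mean log2 CPM of the 3 vehicle libraries (x axis), with members grouped by class (y axis), vehicle in grey and PSB-KD107 in orange, and the shape giving the library number. The orange points lie right of all grey points in 17 members, and the orange triangle, PSB-KD107 library 4, is the leftmost orange point in 21 of the 34.

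**Figure D2:**
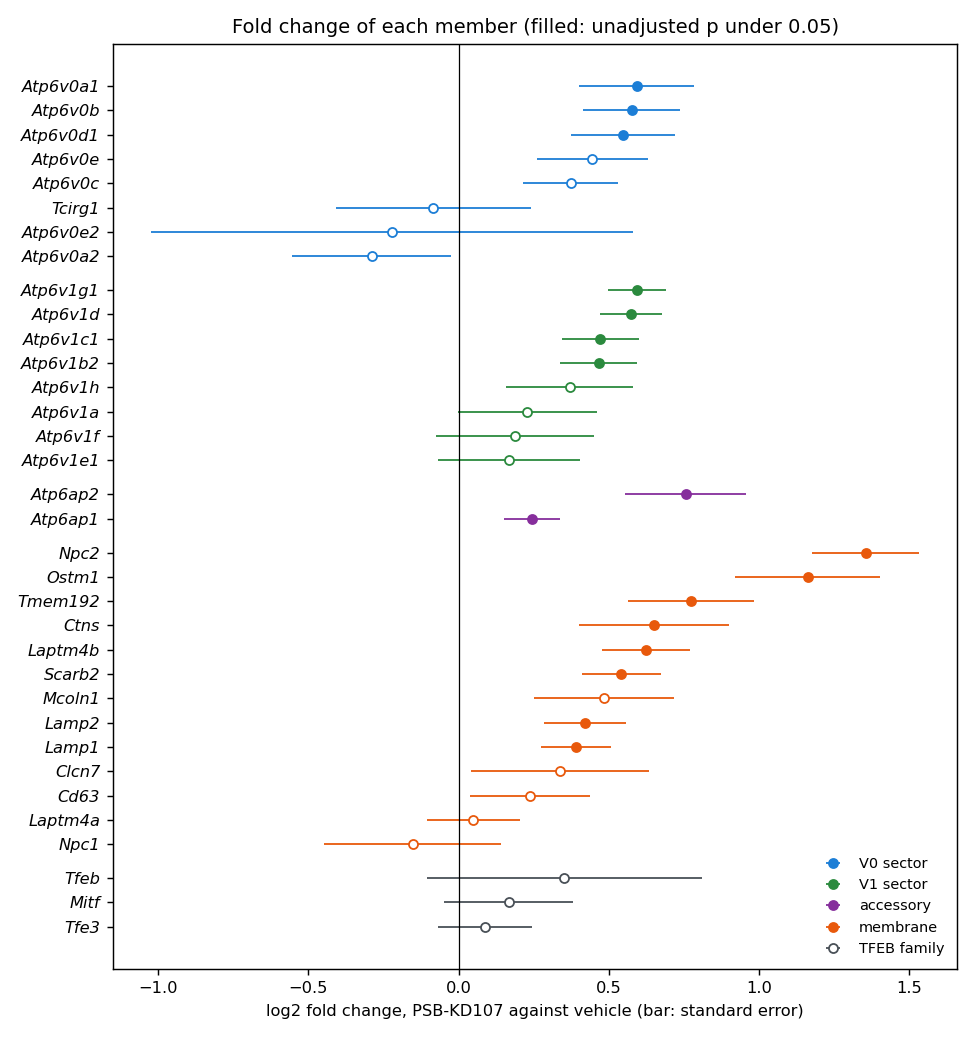
Log2 fold change of each member, PSB-KD107 against vehicle, from edgeR (x axis), with bars of 1 standard error; filled points have an unadjusted p under 0.05, and colours mark the classes. The points range from -0.29 for Atp6v0a2 to 1.35 for Npc2, and 30 of 34 lie right of 0.

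The V0 and V1 sectors had nearly the same median log2 fold change. It was 0.41 for the 8 V0 genes (range -0.29 to 0.59) and 0.42 for the 8 V1 genes (range 0.17 to 0.59). The 2 accessory subunits had a median of 0.50, the 13 lysosomal membrane genes one of 0.48 (range -0.15 to 1.35), and the 3 TFEB family genes one of 0.17 (range 0.09 to 0.35). All 8 V1 genes had a fold change above 0, as did 5 of 8 V0 genes and 12 of 13 membrane genes. Groups did not overlap in 4 V0, 4 V1, both accessory, 7 membrane and none of the TFEB family genes, each time with PSB-KD107 higher. Over all genes tested, 9.20% were apart with PSB-KD107 higher and 6.59% with it lower. Members are not replicates of a condition, and the difference between classes was not tested.

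Summed over the 8 V1 genes, the level was 1033, 1050 and 1068 CPM in vehicle libraries 1, 2 and 4 and 1506, 1463 and 1074 CPM in PSB-KD107 libraries 1, 2 and 4. The V1 sum of PSB-KD107 library 4 thus lay next to the vehicle values, and the other two lay well above them. For the 8 V0 genes the sums were 579.8, 703.2 and 717.5 CPM in vehicle and 814.5, 905.6 and 663.9 CPM in PSB-KD107, so that library 4 fell inside the vehicle range. The 13 membrane genes summed to 2537, 2915 and 3010 CPM in vehicle and to 3372, 3774 and 3461 CPM in PSB-KD107, and here the groups did not overlap.

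Among the V0 genes, 3 were higher at an unadjusted p under 0.05 in edgeR, beside 6.47% of all genes higher and 2.93% lower. None was called by DESeq2, which called 2.26% of genes higher and 0.719% lower. Atp6v0b encodes c″, one of the proteolipids of the proton-carrying ring (chr4:117884326-117887333, minus strand), and its promoter has a pair of CACGTG cores. It was measured at 116.3, 115.4 and 114.3 CPM in the vehicle libraries and at 194.2, 189.4 and 132.0 CPM in the PSB-KD107 libraries, always in the order 1, 2 and 4. Vehicle libraries were nearly identical, and PSB-KD107 library 4 exceeded them by far less than libraries 1 and 2 did. This gave a log2 fold change of 0.58 (SE 0.16, adjusted p = 0.360 in edgeR and 0.112 in DESeq2). Up to 243 of its exon bases are shared with the antisense gene Gm12841, which had at most 20 counts in a library.

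Atp6v0d1 encodes subunit d, which couples the ring to the central stalk (chr8:105524465-105566047, minus strand), and is the member with TCACGTGA nearest before its start. Its levels were 76.5, 66.5 and 68.9 CPM in vehicle and 123.2, 106.5 and 79.8 CPM in PSB-KD107. No overlap was seen, although PSB-KD107 library 4 was only just above vehicle library 1. The fitted log2 fold change was 0.55 (SE 0.17, adjusted p = 0.414 in edgeR and 0.203 in DESeq2). Atp6v0a1, which encodes the a1 form of the large membrane subunit along which protons leave the ring (chr11:101009452-101063719, plus strand), was at 94.0, 73.5 and 66.5 CPM in vehicle and 143.2, 109.6 and 100.0 CPM in PSB-KD107. Both groups had their highest value in library 1, and the lowest PSB-KD107 value was above the highest vehicle value. Its log2 fold change was 0.59 (SE 0.19, adjusted p = 0.419 in edgeR and 0.202 in DESeq2).

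The other V0 genes did not reach an unadjusted p of 0.05. Atp6v0e, a small subunit with TCACGTGA just after its RefSeq start, went from 46.8 ± 9.07 to 63.7 ± 9.20 CPM (SD, n = 3 each), with a log2 fold change of 0.45 and no overlap. Atp6v0c, the main proteolipid of the ring, was at 74.0, 73.8 and 73.8 CPM in vehicle and 105.8, 107.2 and 74.0 CPM in PSB-KD107, so that library 4 alone matched the vehicle level (log2 fold change 0.37, SE 0.16). The 3 V0 genes with negative fold changes were Atp6v0a2 (-0.29, SE 0.27), Atp6v0e2 (-0.22, SE 0.80) and Tcirg1 (-0.08, SE 0.32). In each of these the spread inside a group was larger than the difference between groups, and library 1 was the lowest of its group in both. Atp6v0e2, the alternative e subunit, was at 2.60 and 2.70 CPM in the libraries numbered 1 and at 6.19 to 15.3 CPM in the other four.

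Several subunits of the pump can be supplied by more than 1 gene, and levels between such genes were compared as CPM per kilobase of summed exon length. Of the transcripts for subunit a, Atp6v0a2 supplied 41.6%, 47.0% and 48.7% in the vehicle libraries and 32.7%, 40.6% and 39.6% in the PSB-KD107 libraries. Its share was lower in every PSB-KD107 library than in every vehicle library (45.7% ± 3.73 and 37.6% ± 4.33, SD, n = 3 each, exact two-sided permutation p = 0.1, the smallest that 3 against 3 libraries allow). Atp6v0a1 supplied 21.5% ± 9.13 in vehicle and 31.1% ± 8.02 in PSB-KD107 (exact permutation p = 0.3, n = 3 each). Tcirg1, which encodes the a3 form best known from osteoclasts, supplied 32.7% ± 5.45 and 31.2% ± 3.93 (exact permutation p = 0.8, n = 3 each), and Atp6v0a4 under 0.15% in every library. Over raw counts in place of CPM per kilobase, the permutation p for Atp6v0a2 was 0.2.

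Subunits d, E, B and G drew almost wholly on 1 gene each, while subunits C and e did not in every library. Atp6v0d1 gave at least 99.6% of the subunit d transcripts in every library, and Atp6v1e1 gave 99.6% to 99.8% of those for subunit E. Atp6v1b1, the kidney form of subunit B, and Atp6v1g3 had 0 counts in all 6 libraries, so that Atp6v1b2 was the only B gene counted. For subunit C the libraries numbered 1 stood apart, since Atp6v1c2 gave 14.6% of transcripts in vehicle library 1 and 8.87% in PSB-KD107 library 1 but at most 2.24% in the other four. For subunit e, Atp6v0e2 supplied 21.8% ± 10.4 in vehicle and 15.0% ± 8.81 in PSB-KD107 (exact permutation p = 0.4, n = 3 each).

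**Figure D3:**
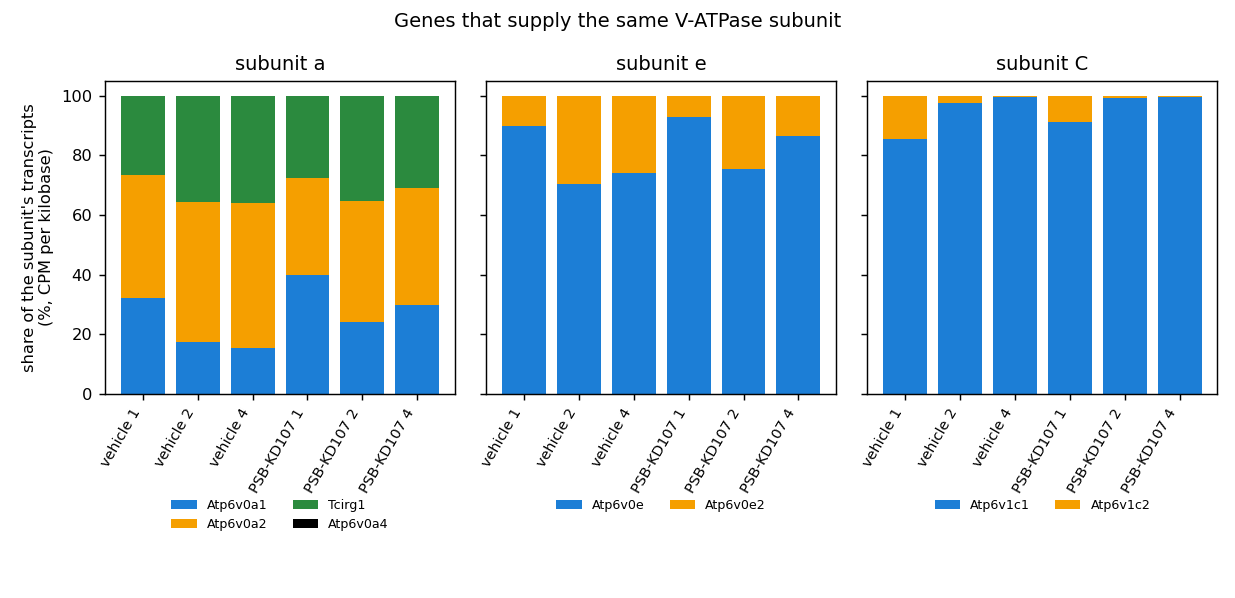
Share of the transcripts of V-ATPase subunits a, e and C that each gene supplied in each of the 6 libraries (y axis, % of CPM per kilobase; x axis, library). Atp6v0a2, in orange on the left, takes 41.6% to 48.7% in the vehicle and 32.7% to 40.6% in the PSB-KD107 libraries, and Atp6v1c2 is visible mainly in the libraries numbered 1.

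All 8 genes of the V1 sector were higher than every vehicle library in PSB-KD107 libraries 1 and 2. The matching shares of all genes tested were 29.9% in library 1 and 27.5% in library 2. In PSB-KD107 library 4, 4 of the 8 V1 genes were above every vehicle library, beside 33.8% of all genes. These were Atp6v1g1, Atp6v1d, Atp6v1c1 and Atp6v1b2. Atp6v1g1 encodes a subunit of the peripheral stalk that holds V1 to V0 (chr4:63544772-63550750, plus strand). It was at 153.5, 136.6 and 141.8 CPM in vehicle and 216.6, 203.0 and 232.3 CPM in PSB-KD107. All PSB-KD107 values lay well clear of the vehicle values, and library 4 was the highest of them, unlike in the other V1 genes. Its log2 fold change came to 0.59 (SE 0.10, adjusted p = 0.184 in edgeR and 9.6e-04 in DESeq2), the smallest p-value among the pump genes.

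Atp6v1d encodes part of the central stalk that turns inside V1 (chr12:78840725-78861638, minus strand), and was at 115.1, 107.5 and 96.9 CPM in vehicle and 171.3, 151.9 and 152.1 CPM in PSB-KD107. Here library 4 was level with library 2, and both were above every vehicle library. The log2 fold change was 0.57 (SE 0.10, adjusted p = 0.205 in edgeR and 0.00382 in DESeq2). Atp6v1c1 encodes subunit C, through which V1 detaches from and rejoins V0 (chr15:38661933-38692446, plus strand), and was at 69.9, 73.9 and 76.4 CPM in vehicle and 111.5, 108.9 and 84.7 CPM in PSB-KD107. Atp6v1b2 encodes the B subunit of the catalytic head (chr8:69088646-69113711, plus strand), and was at 120.9, 114.3 and 113.3 CPM in vehicle and 182.6, 163.9 and 134.9 CPM in PSB-KD107. In both genes the groups were apart, with library 4 the lowest of the PSB-KD107 libraries. Both had a log2 fold change of 0.47 (SE 0.13), with adjusted p-values of 0.346 for Atp6v1c1 and 0.353 for Atp6v1b2 in edgeR and 0.135 for each in DESeq2.

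Groups overlapped in the other 4 V1 genes, each time through library 4. Atp6v1a, the catalytic A subunit with TCACGTGA in its promoter, was at 173.1, 184.2 and 212.9 CPM in vehicle and 267.6, 250.5 and 149.7 CPM in PSB-KD107. Atp6v1e1, a peripheral stalk subunit, was at 248.6, 253.8 and 241.2 CPM in vehicle and 318.6, 336.0 and 180.9 CPM in PSB-KD107. Atp6v1f, a central stalk subunit, was at 84.2, 91.7 and 99.2 CPM in vehicle and 119.6, 129.3 and 64.5 CPM in PSB-KD107. For these 3 genes library 4 was below every vehicle library while libraries 1 and 2 were above. For Atp6v1h, the subunit that links the head to a stalk, library 4 (75.3 CPM) fell inside the vehicle range of 67.9 to 88.1 CPM. Log2 fold changes of the 4 genes were 0.17 to 0.37, with standard errors of 0.21 to 0.26.

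Both accessory subunits were higher in every PSB-KD107 library than in every vehicle library. Atp6ap2, the prorenin receptor, which is needed to assemble the pump (chrX:12587801-12617049, plus strand), was at 67.5, 100.6 and 100.8 CPM in vehicle and 146.4, 178.6 and 128.9 CPM in PSB-KD107. The groups did not overlap in Atp6ap2, and its log2 fold change of 0.76 (SE 0.20, adjusted p = 0.340 in edgeR and 0.0639 in DESeq2) was the largest of the 18 pump genes. Atp6ap1, also called Ac45, a glycoprotein of the V0 sector (chrX:74297097-74304721, plus strand), was at 157.8, 177.7 and 179.9 CPM in vehicle and 203.4, 212.0 and 195.4 CPM in PSB-KD107. The separation was small but held in each library, with a log2 fold change of 0.24 (SE 0.09, adjusted p = 0.5003 in edgeR and 0.479 in DESeq2).

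The largest fold changes among the 34 members were in Npc2 and Ostm1. Npc2 encodes the luminal protein that takes up cholesterol in the lysosome and hands it to Npc1 (chr12:84754562-84773152, minus strand). It was at 120.2, 89.3 and 85.5 CPM in vehicle and 268.3, 211.4 and 274.0 CPM in PSB-KD107. The lowest PSB-KD107 value was far above the highest vehicle value, and library 4 was the highest. This gave a log2 fold change of 1.35 (SE 0.18, adjusted p = 0.165 in edgeR and 4.0e-07 in DESeq2), a 2.56-fold higher mean. Its partner Npc1, which exports the cholesterol, was at 103.5, 164.3 and 184.0 CPM in vehicle and 140.1, 172.4 and 93.8 CPM in PSB-KD107. The groups overlapped for Npc1, with a log2 fold change of -0.15 (SE 0.29, adjusted p = 0.895 in edgeR). Up to 511 exon bases of Npc1 are shared with Rmc1 on the opposite strand, and how strand was used in counting is not given in the sources used here.

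Ostm1 encodes the beta subunit that the chloride-proton exchanger Clcn7 needs for its stability (chr10:42583822-42702459, plus strand). Its levels were 32.2, 23.7 and 19.6 CPM in vehicle and 56.9, 44.2 and 67.9 CPM in PSB-KD107. Library 4 was again the highest, and the groups were apart. The fitted log2 fold change was 1.16 (SE 0.24, adjusted p = 0.236 in edgeR and 0.00272 in DESeq2), a 2.24-fold higher mean. Clcn7 itself, with 2 CACGTG cores around its start, was at 46.8, 71.3 and 75.1 CPM in vehicle and 79.4, 109.8 and 54.9 CPM in PSB-KD107. Libraries 1 and 2 were above every vehicle library and library 4 was inside the vehicle range, so that the 2 genes of the exchanger had log2 fold changes of 1.16 (Ostm1) and 0.34 (Clcn7, SE 0.30).

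Of the structural membrane proteins, Lamp1 and Lamp2 were both higher in every PSB-KD107 library. Lamp1, with 4 CACGTG cores in its promoter (chr8:13159161-13175338, plus strand), was at 575.8, 561.6 and 569.2 CPM in vehicle and 775.6, 806.7 and 652.6 CPM in PSB-KD107. Vehicle libraries differed little, and library 4 was the lowest of the PSB-KD107 libraries. Its log2 fold change came to 0.39 (SE 0.12, adjusted p = 0.394 in edgeR and 0.126 in DESeq2). Lamp1 shares up to 249 exon bases with Grtp1 on the opposite strand, which had at most 757 counts in a library. Lamp2, which also serves chaperone-mediated autophagy (chrX:38401357-38456454, minus strand), was at 235.8, 283.7 and 309.9 CPM in vehicle and 334.7, 376.0 and 399.1 CPM in PSB-KD107. In both groups library 1 was the lowest and library 4 the highest, and the groups did not overlap (log2 fold change 0.42, SE 0.14, adjusted p = 0.428 in edgeR and 0.274 in DESeq2).

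Scarb2, or LIMP-2, carries glucocerebrosidase to the lysosome (chr5:92441314-92506833, minus strand), and was at 113.9, 100.3 and 96.7 CPM in vehicle and 141.0, 136.2 and 175.0 CPM in PSB-KD107. The groups were apart, with library 4 the highest. The log2 fold change was 0.54 (SE 0.13, adjusted p = 0.287 in edgeR and 0.0714 in DESeq2). Laptm4b, a small transmembrane protein of late endosomes and lysosomes (chr15:34238028-34284302, plus strand), was at 32.2, 31.1 and 32.0 CPM in vehicle and 45.9, 41.8 and 58.9 CPM in PSB-KD107. Vehicle values were tight and all PSB-KD107 values were above them, with library 4 the highest. It rose in DESeq2 (adjusted p = 0.0487), with a log2 fold change of 0.62 in edgeR (SE 0.15, adjusted p = 0.281). Its paralog Laptm4a, the most abundant member per kilobase, was at 616.8, 659.6 and 682.7 CPM in vehicle and 558.7, 663.3 and 805.5 CPM in PSB-KD107, and the groups overlapped (log2 fold change 0.05, SE 0.16).

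Tmem192, a membrane protein widely used as a tag for isolating lysosomes (chr8:64947185-64969033, plus strand), was at 7.78, 7.53 and 7.54 CPM in vehicle and 16.3, 12.7 and 10.1 CPM in PSB-KD107. No PSB-KD107 library reached down to the vehicle range. It also rose in DESeq2 (adjusted p = 0.0491), with a log2 fold change of 0.77 in edgeR (SE 0.21, adjusted p = 0.345). Ctns, the cystine exporter (chr11:73183596-73199042, minus strand), was at 24.2, 29.0 and 29.3 CPM in vehicle and 43.7, 56.7 and 29.2 CPM in PSB-KD107. Libraries 1 and 2 were higher, and library 4 equalled the vehicle level (log2 fold change 0.65, SE 0.25, adjusted p = 0.502 in edgeR and 0.308 in DESeq2). Mcoln1, the calcium channel TRPML1, with 2 CACGTG cores in its promoter, gave the same picture at 26.7, 31.8 and 30.2 CPM in vehicle and 45.7, 50.6 and 27.8 CPM in PSB-KD107 (log2 fold change 0.48, SE 0.23). Cd63, a tetraspanin of late endosomes, went from 783.6 ± 159 to 923.4 ± 149 CPM (SD, n = 3 each) with overlapping groups. A pseudogene, Cd63-ps, had at most 284 counts in a library.

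The 7 members with a CACGTG core in their promoter had log2 fold changes of 0.23 (Atp6v1a), 0.34 (Clcn7), 0.39 (Lamp1), 0.45 (Atp6v0e), 0.48 (Mcoln1), 0.55 (Atp6v0d1) and 0.58 (Atp6v0b). The groups were apart in 4 of these, namely Lamp1, Atp6v0e, Atp6v0d1 and Atp6v0b, beside 17 of all 34 members and 9.20% of all genes. Npc2 and Ostm1, with the largest changes of all, had no such core in the window searched.

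The groups overlapped in each of the 3 TFEB family factors. Tfeb, the best known regulator of lysosomal genes (chr17:47737030-47792419, plus strand), was at 14.8, 9.6 and 7.41 CPM in vehicle and 12.6, 6.83 and 21.2 CPM in PSB-KD107. Libraries of both groups were interleaved, with the highest and the lowest value both in PSB-KD107 libraries. This gave a log2 fold change of 0.35 (SE 0.46, adjusted p = 0.842 in edgeR). Without PSB-KD107 library 4 it was -0.12.

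Tfe3, its X-linked relative (chrX:7762560-7775202, plus strand), was at 35.8, 31.7 and 31.9 CPM in vehicle and 42.1, 33.97 and 29.5 CPM in PSB-KD107, and Mitf, known for its role in melanocytes and osteoclasts (chr6:97807052-98021349, plus strand), was at 14.8, 16.2 and 15.6 CPM in vehicle and 19.1, 20.7 and 12.5 CPM in PSB-KD107. For both, library 4 was below every vehicle library. For Mitf, PSB-KD107 libraries 1 and 2 were both above every vehicle library, and for Tfe3 only library 1 was. Their log2 fold changes were 0.09 (SE 0.16, adjusted p = 0.887 in edgeR) and 0.17 (SE 0.21, adjusted p = 0.840 in edgeR). DESeq2 called none of the 3 factors, beside 2.26% of genes higher and 0.719% lower. Per kilobase these were 3 of the 4 least abundant members in vehicle, at 1.87 ± 0.669 (Tfeb), 2.51 ± 0.116 (Mitf) and 3.58 ± 0.247 (Tfe3) CPM per kilobase (SD, n = 3). Tfe3 did not differ beyond the spread from Ostm1 (3.49 ± 0.893), Mcoln1 (3.92 ± 0.345) or Atp6v0e2 (3.94 ± 2.49), so its rank is not settled. At the other end stood Laptm4a at 368.3 ± 18.9, followed by Cd63 and Lamp1, both at about the same level (212.8 ± 43.2 and 212.7 ± 2.67 CPM per kilobase).

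PSB-KD107 library 4 differed from libraries 1 and 2 in these genes. It was the lowest PSB-KD107 library in 21 of the 34 members (37.2% of all genes tested) and the highest in 8 (35.4% of all genes), which were Npc2, Ostm1, Scarb2, Lamp2, Laptm4a, Laptm4b, Atp6v1g1 and Tfeb. Members above every vehicle library numbered 27 in PSB-KD107 library 1 (79.4%, against 29.9% of all genes), 29 in library 2 (85.3%, against 27.5%) and 19 in library 4 (55.9%, against 33.8%). Relative to the vehicle mean, the median log2 difference of the V1 genes was 0.58, 0.50 and 0.06 in PSB-KD107 libraries 1, 2 and 4. For the V0 genes it was 0.39, 0.57 and 0.09, and for the membrane genes 0.45, 0.50 and 0.30. For the 2 accessory genes it was 0.49, 0.66 and 0.37, and for all 18 pump genes together 0.54, 0.51 and 0.18. In library 4 the V1 genes ranged from -0.50 for Atp6v1f to 0.69 for Atp6v1g1, and differences between classes inside a library were not tested. Ly6a, which encodes the Sca-1 antigen that the sort selected against, was also highest in this library, and its part in these values was not tested.

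**Figure D4:**
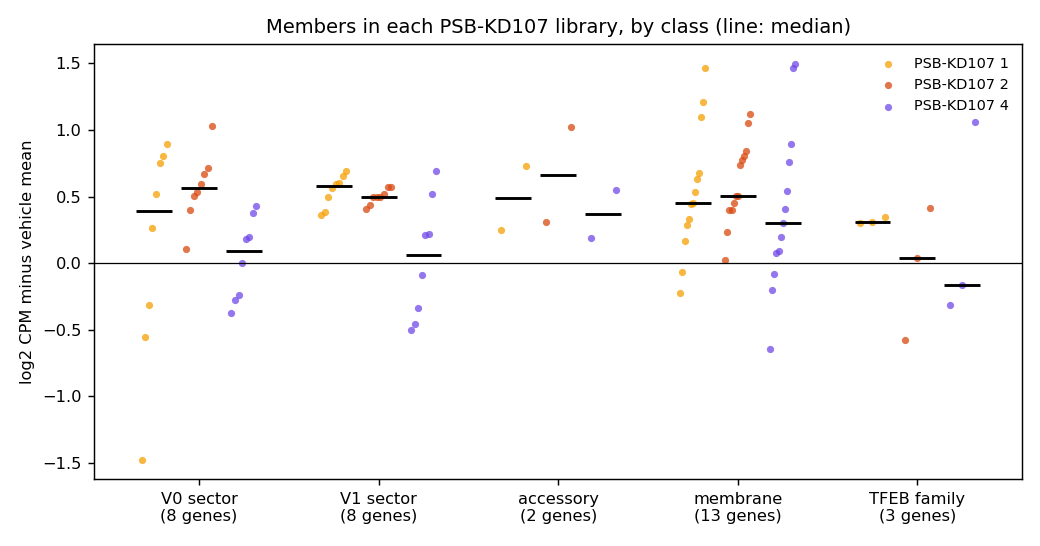
Log2 CPM minus the vehicle mean (y axis) for each member in PSB-KD107 libraries 1, 2 and 4 (colours), by class (x axis), with a black line at the median. For the V1 genes the medians are 0.58, 0.50 and 0.06, and for the membrane genes 0.45, 0.50 and 0.30.

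Further genes of the pathway were taken from lists and are given by counts. Of 14 tested genes for assembly and regulation of the V-ATPase, 1 had an unadjusted p under 0.05 in edgeR, where 6.47% of all genes were higher and 2.93% lower at that p, and the median log2 fold change was 0.10. That gene was Wdr7, part of the complex that reassembles the pump, at 50.6, 52.4 and 52.6 CPM in vehicle and 77.5, 81.4 and 70.3 CPM in PSB-KD107 (log2 fold change 0.56, SE 0.09, adjusted p = 0.184 in edgeR and 7.8e-04 in DESeq2). Every PSB-KD107 library exceeded every vehicle library for Wdr7. Of 4 tested genes for tissue-specific pump subunits, none reached that p. Among 38 other lysosomal membrane genes, 4 had an unadjusted p under 0.05 and a positive fold change and 0 a negative one, against the same 6.47% and 2.93% of all genes, with a median of 0.17, beside 0.48 for the 13 membrane members. Tpcn1, an endolysosomal cation channel, had a log2 fold change of 0.41 (SE 0.09, adjusted p = 0.244 in edgeR and 0.0266 in DESeq2).

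Among 27 tested genes that control TFEB family factors, 9 had a positive and 0 a negative fold change at an unadjusted p of 0.05 in edgeR (6.47% and 2.93% of all genes). Their median was 0.19 on the log2 scale, and DESeq2 called 5 of them higher (2.26% of all genes). Fnip2 encodes a partner of folliculin, which acts on the Rag GTPases that place TFEB at the lysosome, and was at 5.97, 6.27 and 7.29 CPM in vehicle and 20.1, 17.9 and 13.7 CPM in PSB-KD107. Every PSB-KD107 library was above every vehicle library (log2 fold change 1.40, SE 0.20, adjusted p = 0.176 in edgeR and 5.8e-07 in DESeq2). Lamtor3 and Lamtor1, of the Ragulator complex that anchors the Rag GTPases, had log2 fold changes of 0.40 (SE 0.08) and 0.48 (SE 0.10), with adjusted p-values of 0.230 and 0.247 in edgeR and 0.0104 and 0.0266 in DESeq2.

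**Figure D5:**
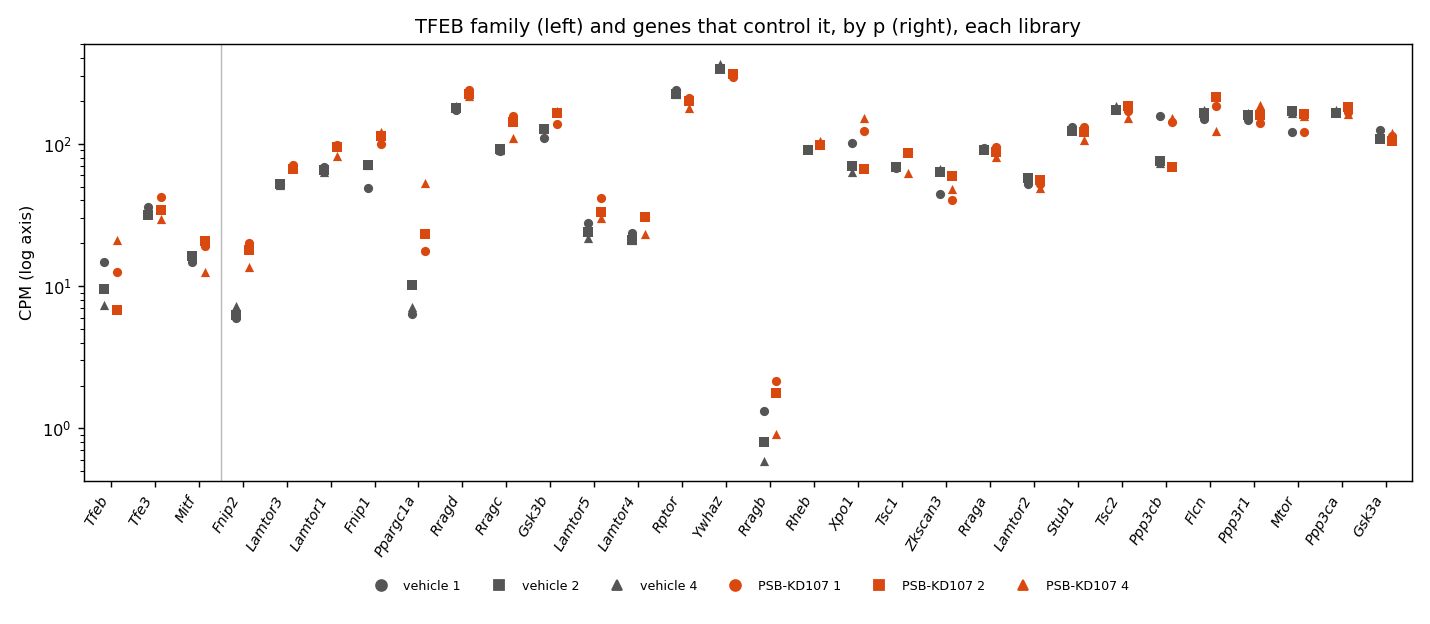
CPM on a log axis (y axis) of Tfeb, Tfe3 and Mitf, left of the line, and of the 27 tested genes that control them, right of the line in order of p-value (x axis), in each vehicle (grey) and PSB-KD107 (orange) library. The groups overlap for the 3 factors and are apart for Fnip2. Fnip2 sits at 5.97 to 7.29 CPM in vehicle and 13.7 to 20.1 CPM in PSB-KD107.

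Known targets of TFEB in lysosomes and autophagy, outside the members, formed a list of 22 genes that were all tested. In edgeR 17 of them had a positive and 0 a negative fold change at an unadjusted p of 0.05 (6.47% and 2.93% of all genes). The median log2 fold change was 0.64, and DESeq2 called 13 higher (2.26% of all genes). Those with the smallest p-values included genes for luminal enzymes. Ctsa (protective protein/cathepsin A) had a log2 fold change of 1.07 (SE 0.11, adjusted p = 0.0874 in edgeR and 9.7e-11 in DESeq2), and Hexa, a subunit of beta-hexosaminidase, had one of 0.89 (SE 0.09, adjusted p = 0.0874 in edgeR and 3.0e-10 in DESeq2). In PSB-KD107 library 4, 20 of the 22 targets and 10 of the 18 pump genes lay above every vehicle library, beside 33.8% of all genes, and the difference between the lists was not tested.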

How the data were processed

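Libraries were poly(A)-selected with a directional kit, sequenced as paired ends and, per the methods of the study, aligned with STAR to the mouse genome (mm10 per the labels). The authors deposited raw read counts per gene. The counting program, its annotation and its use of strand are not given in the sources used here. Coordinates and exon lengths came from GENCODE M21 (GRCm38), and promoter sequences from RefSeq (GRCm38.p6). The columns numbered 4 were assigned to a group by their names, since the sample records number the libraries otherwise.

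Counts were tested in R 4.3.3 with edgeR 4.0.16 (filterByExpr defaults, TMM factors, quasi-likelihood test) on 3 libraries per group, with Benjamini-Hochberg adjustment over the 14165 genes tested. DESeq2 1.42.0, the package named in the study's methods, was run on all genes with a count. CPM values are TMM-normalized, and a count of 3 corresponds to 0.0596 to 0.0962 CPM. Errors are SDs over 3 libraries or standard errors (SE) of the fit.

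Members were described with per-library values where they had an unadjusted p under 0.05 or the 3 smallest p-values of their class, and for all TFEB family genes; other per-library values were added after they were seen. From each further list, at most the 3 genes with the smallest p-values were named. One gene covered by this rule is not reported here. The members and lists were chosen with earlier results of these data known. Alternatives were RLE factors, no filter, limma-voom 3.58.1, DESeq2, a block on the library number, the 4 libraries numbered 1 and 2, each library left out, other length scalings and a longer motif.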

Additional observations from a re-analysis of the deposited data

How the results depend on the processing

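No member passed an adjusted p of 0.05 in edgeR with RLE factors, with no filter, in limma-voom, with a replicate block on all 6 libraries, without a block on the 4 libraries numbered 1 and 2, or with any 1 library left out (range 0 to 0). Over all genes the edgeR count was 8 with no filter, 410 in DESeq2 and 2456 with a replicate block on the libraries numbered 1 and 2, which leaves 1 residual degree of freedom. With that block edgeR called 27 members among these 2456 genes. Mitf was among the 27 (log2 fold change 0.36, adjusted p = 0.0452 in edgeR), and Tfeb and Tfe3 were not. On the same 4 libraries without it, edgeR called 0 members and 0 of all genes. With the block, 30 members reached an unadjusted p of 0.05. DESeq2 called 6 members on all 6 libraries and 26 with that block. DESeq2 called 2 members on the same 4 libraries without the block and 8 with the block on 6 libraries. Shares of all genes are not given here for the unadjusted p with the block or for these alternative DESeq2 fits. Their member counts therefore cannot be set against all genes. Deviations from the group means correlated at 0.632, 0.52 and -0.13 between libraries numbered 1, 2 and 4, and PSB-KD107 library 2 correlated best with vehicle library 4 (0.645). Not every pair deviated together, although those numbered 1 and those numbered 2 did, and the main test did not use the numbers as pairs. These correlations cannot settle whether libraries with the same number shared a mouse. With 1 library left out, 11 to 23 members had an unadjusted p under 0.05, and DESeq2 called 2 to 17, again without a matching share of all genes.

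Class medians stayed above 0 under each alternative, that of the V1 genes between 0.30 and 0.55 with 1 library left out. Signs reversed in 6 members, with the cause not tested. With the block on libraries 1 and 2, and on these 4 without it, the log2 fold changes were 0.22 and 0.19 for Tcirg1, 0.13 and 0.16 for Atp6v0e2, 0.25 and 0.22 for Npc1, -0.069 and -0.064 for Laptm4a, and -0.35 and -0.33 for Tfeb. With 1 library left out they ranged from -0.35 to 0.084 for Tcirg1, -1.08 to 0.18 for Atp6v0e2, -0.37 to 0.052 for Npc1, -0.10 to 0.16 for Laptm4a, -0.12 to 0.67 for Tfeb and -0.079 to 0.20 for Tfe3. A motif longer by a G before and a C after TCACGTGA occurred in 0 member promoters, against 0.326% of all.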
